A study of Mus musculus with 6 samples.

Results

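The 84 genes described here encode the matrix metalloproteases (MMPs), the ADAM and ADAMTS metalloproteases, the ADAMTS-like proteins and the tissue inhibitors of metalloproteases (TIMPs). They were taken by gene symbol from a table of 39174 genes. The symbol rule used no measured values, but it was chosen with earlier results of these data known. There were 23 Mmp, 4 Timp, 33 Adam, 19 Adamts and 5 Adamtsl genes.

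The RNA came from MLO-Y4, an established osteocyte-like line from mouse (osteocytes are the cells embedded in bone matrix). Cells were grown with serum on glass slides coated with type I collagen and were roughly 60% confluent. In the flow group, 3 cultures were sheared by oscillating fluid flow (10 dyn/cm²) for 2 h, then kept 2 h in fresh medium. The non-flow group held 3 sham-treated control cultures of the same line, taken in parallel and on the same schedule, so that the comparison asks which transcripts differ after flow. Replicates were taken on separate days, and the labels give no other treatment or genotype for any of the 6 libraries. Replicate numbers used here follow the order of library titles within each group, and no label matches them across groups. The groups represent 1 cell line on flat glass, without bone matrix or other bone cells.

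Values are FPKM, fragments scaled to transcript length and to the number mapped in a library, as the authors deposited them. They are scaled for length, so levels may be compared between genes. Depth was estimated from the FPKM that 1 read is worth, at 17910000 to 19010000 reads in the controls and 11020000, 5750000 and 19230000 reads in flow libraries 1 to 3. For a transcript with 1 kb of effective length, 3 reads equalled 0.156 to 0.521 FPKM, a floor that covers counting error only. In the table tested, flow libraries 1 and 2 were thus the shallowest, and they also stood apart in base composition, as given below with the results it touches. Of the osteocyte markers, Pdpn (357 to 420.4 FPKM) and Gja1 (414 to 503 FPKM) were high and Phex was present (4.06 to 7.46 FPKM). Dmp1, a marker of embedded osteocytes, reached at most 0.0354 FPKM, and Sost, Mepe and Fgf23 were listed at 0 in all 6 libraries. Of the osteoblast and fibroblast markers, Col1a1 (105 to 169 FPKM) and Col1a2 (92 to 123 FPKM) were high. Pdgfrb (10.8 to 22.6 FPKM), Bglap (6.43 to 9.95 FPKM), Runx2 (3.88 to 9.88 FPKM) and Alpl (1.05 to 7.31 FPKM) were present. Sp7 reached at most 0.388 FPKM. Of 7 macrophage and osteoclast markers, Ctsk, the collagen-cutting cathepsin K, was at 165 to 216 FPKM and Cd68 at 1.42 to 3.27 FPKM, while Ptprc, Csf1r, Adgre1, Itgam and Acp5 reached at most 0.151 FPKM. The 4 endothelial markers reached at most 0.152 FPKM. In the other table that the authors deposited, which is shallower, Pecam1 among them had 0.548 to 2.69 FPKM. Of the male germ cell markers, Prm1 reached 1.02 FPKM in flow library 1, while Tnp1, Ddx4 and Acrv1 were listed at 0 in all 6 libraries. A lower level in such bulk RNA can come from fewer cells of a type or from less RNA per cell, and these cannot be told apart.

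MMPs are zinc-dependent proteases that cut collagens, proteoglycans and other matrix proteins. Most are secreted as inactive precursors, some are held in the membrane, and TIMPs bind and block their active sites. ADAMs are membrane proteins, many of which shed the outer parts of growth factors, cytokines and receptors, while ADAMTS enzymes are secreted and cut proteoglycans or process procollagens. In bone, osteocytes use such proteases to remodel the matrix around their cell bodies and processes.

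A few of these genes carried most of the expression. Over the 6 libraries, 16 of the 84 had a mean of at least 10 FPKM, 9 lay between 1 and 10 FPKM, and 59 lay under 1 FPKM, of which 27 were listed at 0 in every library. Timp2, Mmp14, Mmp2 and Timp1 each had a mean over 100 FPKM, and together they made up 51.9% to 57.7% of the summed FPKM of the 84 genes in each library. MMP14 is a membrane-bound collagenase that activates the precursor of the gelatinase MMP2, with TIMP2 as a bridge between them, so 3 of the 4 most abundant transcripts encode the parts of this known activation complex. Among ADAMs the highest was Adam15, at a mean of 75.4 FPKM. Adamts1, at 33 FPKM, led the ADAMTS genes, and Adamtsl4, at 71.8 FPKM, led the ADAMTS-like genes. The families differed in how many members were on: 2 of 4 Timp, 8 of 23 Mmp, 7 of 33 Adam, 6 of 19 Adamts and 2 of 5 Adamtsl genes had a mean of at least 1 FPKM, the level required for testing.

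**Figure D1:**
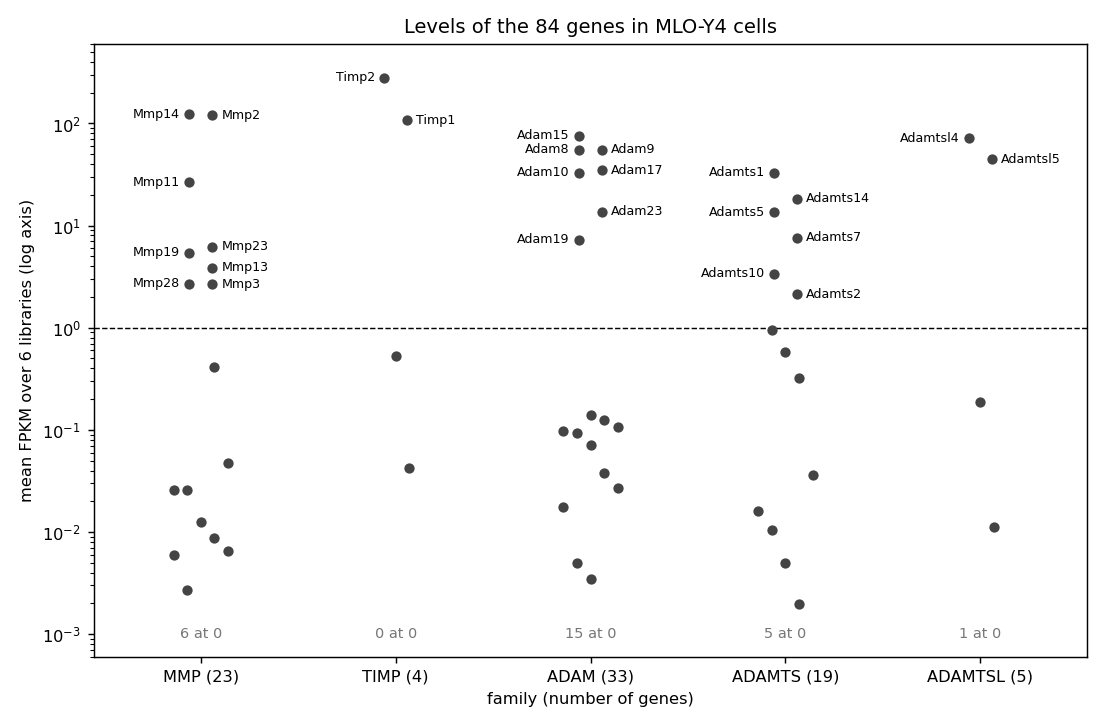
Mean FPKM over the 6 libraries for each of the 84 genes, by family, on a log axis. Each point is 1 gene, the dashed line marks 1 FPKM, the 25 genes above it are named, and the number of genes listed at 0 in all 6 libraries stands at the foot of each column (27 in all).

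The letters before the gene starts differed between the abundant members and the 10 Mmp genes that lie together on chromosome 9. These 10 genes (Mmp13, Mmp12, Mmp1b, Mmp3, Mmp1a, Mmp10, Mmp8, Mmp27, Mmp20 and Mmp7) lie between positions 7272514 and 7699585 of chromosome 9 of mm10. Only Mmp13 and Mmp3 of the cluster had a mean of at least 1 FPKM, and 5 were listed at 0 in every library. RefSeq promoters (build GRCm38.p6, the same assembly as mm10) were at hand for 53 of the 84 genes, and the 250 bases before the start were searched on both strands for 3 short motifs. The first was TGACTCA, bound by AP-1 factors such as Fos and Jun. A GC box, known as a site of SP1, was spelled GGGCGG in the search. As a TATA box, at which the general transcription machinery assembles, the search took TATAAA. None of these motifs contains another. The sequences below show 3 genes of the cluster, then 3 abundant members from other chromosomes. They were chosen after the levels were seen, each runs 5′ to 3′ and ends at the base before the start, and capitals mark the motifs found on either strand. RefSeq starts can differ from the gene ends of the annotation used for coordinates.
Mmp13 (chr9:7272264-7272513, plus strand): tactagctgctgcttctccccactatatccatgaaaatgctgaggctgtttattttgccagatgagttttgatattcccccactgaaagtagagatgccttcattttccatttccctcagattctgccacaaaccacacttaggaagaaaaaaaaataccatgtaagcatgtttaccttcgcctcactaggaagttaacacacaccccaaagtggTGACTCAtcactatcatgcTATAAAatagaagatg
Mmp3 (chr9:7445572-7445821, plus strand): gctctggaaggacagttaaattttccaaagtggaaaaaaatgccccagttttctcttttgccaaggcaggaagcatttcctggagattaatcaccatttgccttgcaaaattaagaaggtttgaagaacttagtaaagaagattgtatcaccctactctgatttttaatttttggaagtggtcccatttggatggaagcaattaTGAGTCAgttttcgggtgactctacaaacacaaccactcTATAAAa
Mmp10 (chr9:7502092-7502341, plus strand): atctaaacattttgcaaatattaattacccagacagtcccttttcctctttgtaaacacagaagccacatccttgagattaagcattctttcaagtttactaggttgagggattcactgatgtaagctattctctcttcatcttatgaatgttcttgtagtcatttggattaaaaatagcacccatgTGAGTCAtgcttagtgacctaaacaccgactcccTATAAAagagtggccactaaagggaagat
Timp2 (chr11:118355412-118355661, minus strand): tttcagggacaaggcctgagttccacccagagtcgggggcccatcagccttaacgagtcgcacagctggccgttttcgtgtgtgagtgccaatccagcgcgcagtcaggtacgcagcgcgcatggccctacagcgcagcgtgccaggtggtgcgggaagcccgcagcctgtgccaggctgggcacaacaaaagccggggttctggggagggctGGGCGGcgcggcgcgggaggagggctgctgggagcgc
Mmp14 (chr14:54431348-54431597, plus strand): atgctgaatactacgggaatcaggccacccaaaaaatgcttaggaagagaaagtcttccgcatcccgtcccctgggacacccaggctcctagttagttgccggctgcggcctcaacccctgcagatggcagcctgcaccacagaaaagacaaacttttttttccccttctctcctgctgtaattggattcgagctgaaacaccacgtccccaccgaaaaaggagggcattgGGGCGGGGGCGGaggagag
Adam15 (chr3:89350029-89350278, minus strand): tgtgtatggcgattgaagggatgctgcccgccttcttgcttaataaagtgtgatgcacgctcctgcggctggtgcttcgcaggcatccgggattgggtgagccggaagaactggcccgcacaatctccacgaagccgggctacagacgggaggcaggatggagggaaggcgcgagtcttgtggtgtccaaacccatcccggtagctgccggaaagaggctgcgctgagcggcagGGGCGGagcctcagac

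In Mmp13 the AP-1 motif began 35 bases before the start and the TATA box 16 bases before it. In Mmp3 they began 46 and 7 bases before the start, and in Mmp10 63 and 29 bases before it. Timp2, Mmp14 and Adam15 held neither motif but held GC boxes, beginning 37 bases before the start in Timp2, 19 and 13 in Mmp14 and 16 in Adam15. RefSeq listed several starts for 4 members, and 1 per gene was counted, that with the smallest coordinate. Of the 10 cluster genes, 6 held the AP-1 motif, 7 a TATA box and 0 a GC box, and with every listed start counted 7 held the AP-1 motif, Mmp12 being added. Of the 13 members with a mean of at least 10 FPKM and a promoter at hand, 12 held a GC box, 1 a TATA box and 0 the AP-1 motif. Of the 34 members under 1 FPKM with a promoter, 10 held a GC box, 10 a TATA box and 5 the AP-1 motif (6 with every listed start). At 1 of the 3 starts listed for Adam19 the motif was present as well. The cluster genes are related to each other by sequence, so they are not independent examples. Over all 32851 promoters, 4.46% held the AP-1 motif, 32.7% a GC box and 12.4% a TATA box. GC boxes were common in abundant genes generally: 62.8% of all genes averaging 10 FPKM or more held one, against 25.3% of those under 1 FPKM. For the TATA box the order was the reverse, with 5.94% of all genes averaging 10 FPKM or more and 17.2% under 1 FPKM. The AP-1 motif was held by 2.98% and 4.82% of these genes. A match of letters is a description only, and says nothing of whether a factor binds there.

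**Figure D2:**
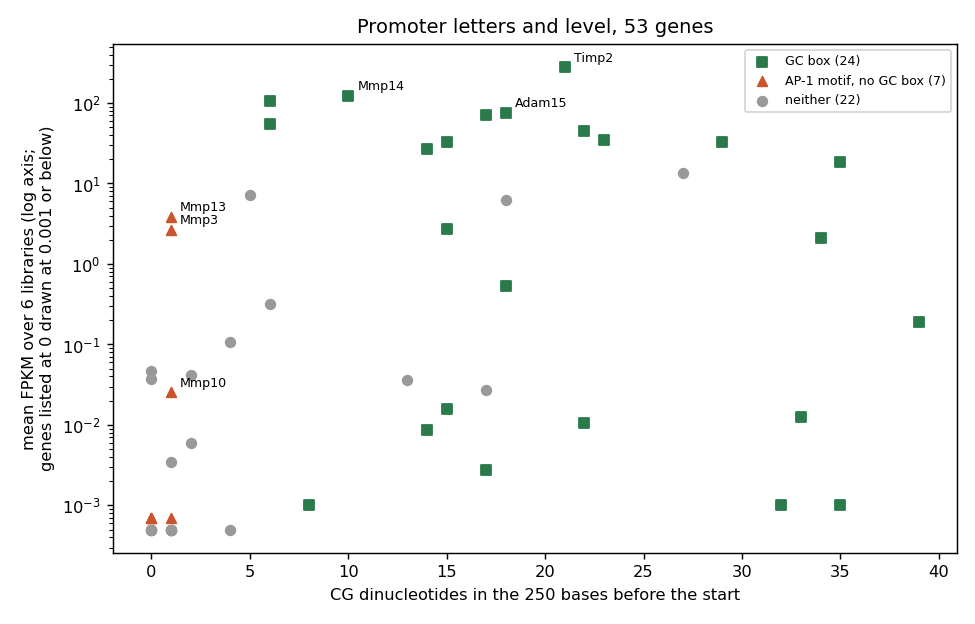
Mean FPKM over the 6 libraries (log axis) against the number of CG dinucleotides in the 250 bases before the start, for the 53 genes with a promoter at hand, 1 point per gene. Squares are genes with a GC box (24), triangles genes with the AP-1 motif and no GC box (7) and circles genes with neither (22), and Mmp13, Mmp3 and Mmp10 sit at 1 CG dinucleotide each.

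No member passed the test between flow and control. Among the 25 testable members, limma on log2(FPKM + 1) called 0 at an adjusted p under 0.05, against 2 of all 11957 genes tested (0.0167%). Without adjustment 2 of the 25 had p under 0.05, Adam15 and Mmp2, both lower with flow, where 8.52% of all tested genes reached that level (limma), 4.82% lower and 3.7% higher. In the same 2 genes the 3 flow values lay below all 3 control values, as they did in 8% of all tested genes. The reverse order, with the 3 flow values above every control, occurred in 0 of the 25 and in 7.12% of all genes. Counts of 2 and 0 among 25 genes are close to those backgrounds. The number of members whose flow values all lay below the controls became 4 on leaving out non-flow control 3, 5 on leaving out flow library 2 and 6 on leaving out flow library 3, but 2 values against 3 separate more often, and in all genes tested that number went from 957 to 1589, 1342 and 2732.

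Most of the tested members had a somewhat lower mean with flow. The log2 fold change (flow minus control; taken as log2(FPKM + 1), so that changes of low genes come out too small) was below 0 in 16 of 25 members and above 0 in 9, against 51.7% and 48.3% of all tested genes. The median over the 25 was -0.10, with a range of -0.37 to 0.22, and the median over all genes was -0.011. The median of the members was -0.022 without flow library 2, -0.041 without flow library 1 and -0.15 without flow library 3. With flow library 3 alone against the controls it was 0.012, an alternative chosen after the data were seen. In the other deposited table the median of the members was -0.053, and with no filter on low values it was -0.0056 over 57 members.

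The base composition of the transcripts moved with these differences. The tested members were rich in G and C, with a median of 54.2% against 49.6% in all tested protein-coding genes, and 16 of the 25 fell in the upper of 3 equal classes of GC content. In that class the median log2 fold change was -0.18 over all 3487 genes and -0.22 over the 16 members. In the lower class it was 0.16 over all 3487 genes and 0.018 over 5 members. The trend lay in flow libraries 1 and 2, where the median difference from the control mean in the GC-rich class was -0.25 and -0.28, while in flow library 3 it was -0.0037. With the GC trend removed from each library, the median of the 25 members was -0.035 and 15 lay below 0. Limma again called 0 of the 25. The 1 member at an unadjusted p under 0.05 was then Mmp23, higher with flow (log2 fold change 0.42, limma adjusted p = 0.719). Adam15 and Mmp2 no longer reached that level. The correction moved some members nearer to 0, such as Adam15 (-0.33 to -0.12). Others moved further from it, such as Mmp13 (-0.24 to -0.42), Adamts5 (-0.10 to -0.24) and Adamts10 (0.17 to 0.38). Flow libraries 1 and 2 were also the shallowest in the table tested, while in the other deposited table non-flow control 1 was, at 690000 reads. The part of depth in these values was not tested.

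**Figure D3:**
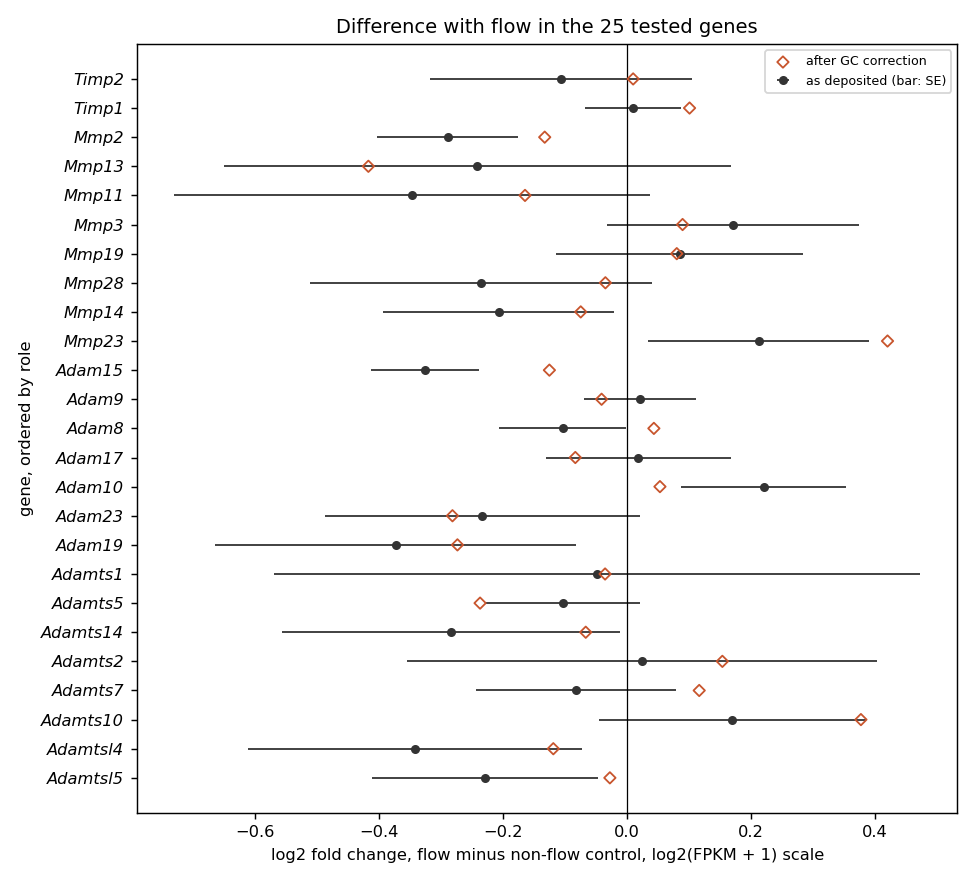
Log2 fold change (flow minus non-flow control, log2(FPKM + 1) scale) of the 25 tested genes, ordered by role. Filled circles with bars give the value as deposited and its SE from limma, and open diamonds the value after the GC correction, which for Adam15 went from -0.33 to -0.12 and for Mmp2 from -0.29 to -0.13. In other genes the value moved further from 0, as in Mmp23 (0.21 to 0.42) and Mmp13 (-0.24 to -0.42).

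Adam15 had the smallest p of the members. It encodes a membrane ADAM with an integrin-binding disintegrin domain and lies on chromosome 3 from 89338542 to 89349996 of mm10 (ENSMUSG00000028041). It had 81, 89 and 81.9 FPKM in non-flow controls 1 to 3 and 66.2, 63.7 and 70.5 FPKM in flow libraries 1 to 3. Every flow value lay below every control, and the group means were 84 ± 4.36 FPKM in controls and 66.8 ± 3.43 FPKM with flow (SD, n = 3). The log2 fold change was -0.33 with an SE of 0.087, and with an adjusted p of 0.559 (limma; unadjusted p = 0.00896) it did not pass the test. An antisense gene, 4731419I09Rik, shares 20.6% of its exon bases but was listed at 0 in all 6 libraries. Its longest transcript holds 57.9% G and C, and the log2 fold change was -0.12 after the GC correction (adjusted p = 0.801). The other table that the authors deposited is shallower and shares library titles with the one tested, so it is not independent. Adam15 had 88.4 to 92.9 FPKM in the controls and 57.2 to 63.1 FPKM with flow there, again with no overlap.

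Mmp2 encodes gelatinase A, which cuts denatured collagen and basement membrane collagen, and lies on chromosome 8 from 92827291 to 92853420 (ENSMUSG00000031740). It had 137, 123 and 135 FPKM in non-flow controls 1 to 3 and 104, 97.1 and 123 FPKM in flow libraries 1 to 3. All 3 flow values lay below the controls, but flow library 3 was within 1 FPKM of the lowest control. In the other deposited table the groups overlapped, with 105 to 128 FPKM in the controls and 86.6 to 116 FPKM with flow. The log2 fold change was -0.29 with an SE of 0.11 (limma adjusted p = 0.559, unadjusted p = 0.0432). After the GC correction the log2 fold change was -0.13. Its transcript holds 55.3% G and C.

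The ranges of flow and control overlapped in each inhibitor. Timp2 (ENSMUSG00000017466, chromosome 11 from 118301069 to 118355740) had 344, 223 and 303 FPKM in non-flow controls 1 to 3 and 311, 212 and 283 FPKM in flow libraries 1 to 3. The lowest value of each group was replicate 2 and the highest replicate 1, so the groups overlapped (log2 fold change -0.11, SE 0.21, limma adjusted p = 0.843). Timp1, which inhibits most secreted MMPs (ENSMUSG00000001131, chromosome X from 20870166 to 20874735), had 105, 106 and 110.3 FPKM in non-flow controls 1 to 3 and 111, 104 and 108 FPKM in flow libraries 1 to 3. Its 6 values spanned only 104 to 111 FPKM, the smallest ratio of highest to lowest among the 16 members over 10 FPKM (log2 fold change 0.010, SE 0.077, limma adjusted p = 0.965). Timp3, which binds the matrix and also inhibits ADAM17 and the aggrecan-cutting ADAMTS enzymes, lay at 0.184 to 0.958 FPKM and was not tested. Timp4 reached at most 0.0865 FPKM. The summed FPKM of the 4 inhibitors was 1.14 to 1.37 times that of the 23 MMPs in controls and 1.26 to 1.56 times with flow, and these ranges overlapped.

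**Figure D4:**
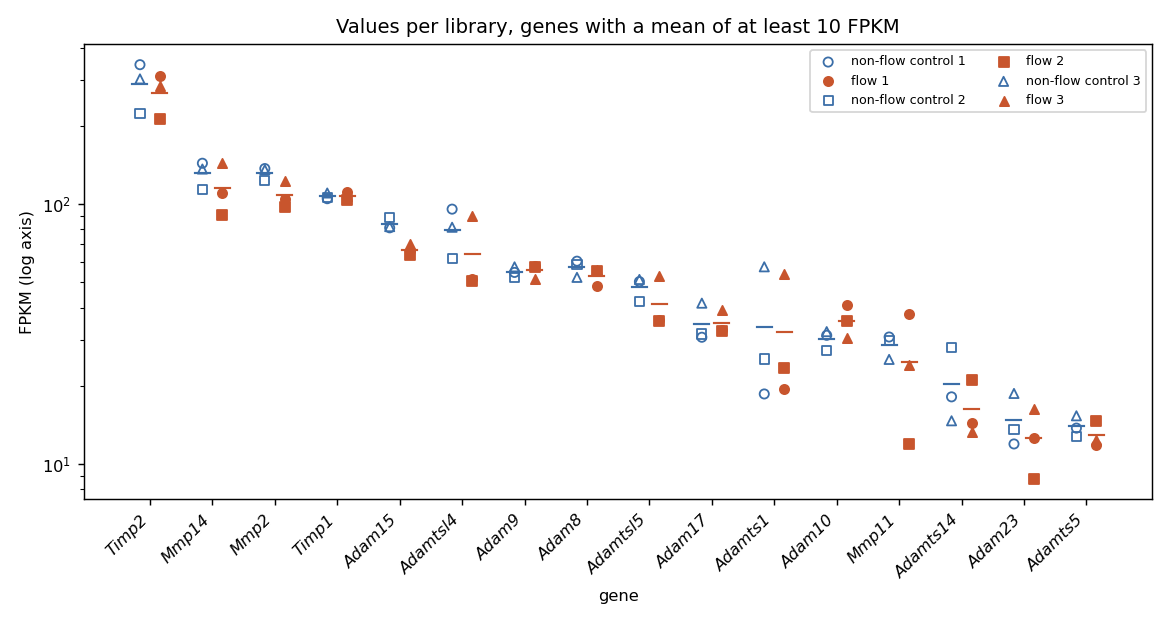
FPKM in each library (log axis) for the 16 genes that average 10 FPKM or more. Open blue symbols are non-flow controls, filled orange symbols flow libraries, symbol shapes give replicates 1 to 3 and short lines the group means. Of these 16 genes the groups separate only in Mmp2 and Adam15, where every flow value is below the controls.

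Membrane-bound MMPs were led by Mmp14 (ENSMUSG00000000957, chromosome 14 from 54431612 to 54445364), known for its role in osteocyte process formation. It had 144, 114 and 136 FPKM in non-flow controls 1 to 3 and 110.4, 90.9 and 144 FPKM in flow libraries 1 to 3. Flow libraries 1 and 2 were the lowest of all but flow library 3 was as high as the highest control (log2 fold change -0.21, SE 0.19, limma adjusted p = 0.653). Mmp23, a membrane-anchored MMP that is released by cleavage, had 5.61 ± 0.498 FPKM in controls and 6.74 ± 1.51 FPKM with flow (SD, n = 3, as for each group mean given after it; log2 fold change 0.21, SE 0.18, limma adjusted p = 0.634). After the GC correction the log2 fold change of Mmp23 was 0.42. The other 5 of the 7 membrane-bound MMPs, Mmp15, Mmp16, Mmp17, Mmp24 and Mmp25, had means of at most 0.0259 FPKM. In the other deposited table Mmp16 had 0 to 0.531 FPKM in the controls and 0 to 1.14 FPKM with flow. There 3 of its 6 columns lay under the FPKM of 3 reads.

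Secreted MMPs other than Mmp2 were far less abundant. Mmp11, stromelysin-3, which is activated inside the cell by furin, had 30.8, 29.96 and 25.3 FPKM in non-flow controls 1 to 3 and 37.9, 12 and 24 FPKM in flow libraries 1 to 3. The highest and the lowest of its 6 values were both flow libraries (log2 fold change -0.35, SE 0.38, limma adjusted p = 0.712), and without flow library 2 the log2 fold change was 0.076. Chchd10 on the opposite strand shares 5.58% of the exon bases of Mmp11 and was abundant (136 to 256 FPKM). Mmp3, stromelysin-1, which cuts proteoglycans and activates other MMPs, had 2.45 ± 0.514 FPKM in controls and 2.89 ± 0.645 FPKM with flow (log2 fold change 0.17, SE 0.20, limma adjusted p = 0.73). Mmp13, the main interstitial collagenase of mouse bone, had 2.77, 6.09 and 3.63 FPKM without flow, against 1.87, 6.31 and 2.58 FPKM after it. Replicate 2 was the highest in both groups (log2 fold change -0.24, SE 0.41, limma adjusted p = 0.816). The other collagenases, Mmp1a, Mmp1b and Mmp8, were listed at 0 in all 6 libraries. Mmp19 had 5.28 ± 1.33 FPKM in controls and 5.6 ± 0.866 FPKM with flow (log2 fold change 0.085, SE 0.20, limma adjusted p = 0.871), and 28.3% of its exon bases lie opposite other genes, so its reads are uncertain. Mmp28, epilysin, had 2.99 ± 0.909 FPKM in controls and 2.43 ± 0.943 FPKM with flow (log2 fold change -0.23, SE 0.28, limma adjusted p = 0.728), with 12% of its exon bases opposite another gene. None of these secreted MMPs separated the groups. Gelatinase B, Mmp9, known from osteoclasts, lay at 0.106 to 0.43 FPKM in controls and 0.325 to 0.811 FPKM with flow.

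ADAM transcripts were present for the main sheddases. Adam10, which sheds Notch and cadherins (ENSMUSG00000054693, chromosome 9 from 70678997 to 70780229), had 31.3, 27.4 and 32.3 FPKM in non-flow controls 1 to 3 and 40.8, 35.5 and 30.6 FPKM in flow libraries 1 to 3. Flow libraries 1 and 2 were the highest of the 6 and flow library 3 the second lowest, so the groups overlapped (log2 fold change 0.22, SE 0.13, limma adjusted p = 0.58). In the other deposited table they did not, with 24.8 to 28.4 FPKM in the controls and 28.9 to 38.8 FPKM with flow. Its transcript is poor in G and C at 42.1%, and the log2 fold change was 0.053 after the GC correction. Adam17, the enzyme that releases TNF and several EGF receptor ligands (ENSMUSG00000052593, chromosome 12 from 21323509 to 21373632), had 30.7, 31.6 and 41.6 FPKM in non-flow controls 1 to 3 and 32.8, 32.6 and 39.3 FPKM in flow libraries 1 to 3. Replicate 3 was the highest in both groups (log2 fold change 0.018, SE 0.15, limma adjusted p = 0.968). In the other deposited table Adam17 had 21.8 to 31.2 FPKM in the controls and 30.7 to 43.6 FPKM with flow. The means there were 25.4 and 35.8 FPKM, and the groups overlapped. Iah1, which runs antisense to Adam17, covers 4.35% of the exons of Adam17 and had 12.7 to 15.8 FPKM.

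Adam9, a widely expressed sheddase, had 54.6, 52.1 and 57.3 FPKM without flow, against 57.7, 57.3 and 51.5 FPKM after it. Its values differed little between libraries (log2 fold change 0.021, SE 0.090, limma adjusted p = 0.935). Adam8, first known from leukocytes, had 60.3, 58.7 and 52.2 FPKM without flow, against 48.5, 55.1 and 55.5 FPKM after it, with overlapping groups (log2 fold change -0.10, SE 0.10, limma adjusted p = 0.677). Adam19 had 11.1, 8.95 and 5.19 FPKM without flow, against 4.65, 5.84 and 7.87 FPKM after it. It had the most negative log2 fold change of the members, but its groups overlapped and its SE was large (log2 fold change -0.37, SE 0.29, limma adjusted p = 0.634). Antisense genes Gm16033 and Gm16034 together share 10.1% of its exon bases, and the mean of Gm16034 was 5.04 FPKM in controls and 2.6 FPKM with flow. Their part in the value of Adam19 was not tested. Adam23, which lacks protease activity and binds other membrane proteins, had 11.9, 13.6 and 18.7 FPKM without flow, against 12.5, 8.78 and 16.3 FPKM after it. Its lowest value was in flow library 2 (log2 fold change -0.23, SE 0.25, limma adjusted p = 0.707). In the other deposited table neither Adam8 nor Adam23 overlapped between groups, both being lower with flow. All flow values lay below the controls in 5.91% of the genes tested there. The other 26 Adam genes had means under 1 FPKM, among them Adam12 and Adam28, listed at 0 in all 6 libraries, and Adam33, at most 0.02996 FPKM. Many of these genes are known from testis, such as Adam2, Adam3 and Adam18. Adam2 and Adam18 were listed at 0 in all 6 libraries, and Adam3 reached 0.442 FPKM in flow library 3.

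Adamts1 and Adamts14 differed more between replicates than between flow and control, and no ADAMTS gene separated by group among the 6 tested. Adamts1, which cuts versican and aggrecan (ENSMUSG00000022893, chromosome 16 from 85793827 to 85803113), had 18.6, 25.4 and 57.4 FPKM in non-flow controls 1 to 3 and 19.4, 23.4 and 53.8 FPKM in flow libraries 1 to 3. Replicate 3 was more than 2-fold above replicates 1 and 2 in both groups (log2 fold change -0.048, SE 0.52, limma adjusted p = 0.975). Adamts5, an aggrecanase next to Adamts1 on chromosome 16, had 13.7, 12.8 and 15.3 FPKM without flow, against 11.8, 14.7 and 12.3 FPKM after it. Its values stayed within a narrow range (log2 fold change -0.10, SE 0.12, limma adjusted p = 0.734). Adamts4, the other classical aggrecanase, had 0.919, 0.791 and 0.853 FPKM without flow, against 0.995, 0.954 and 1.2 FPKM after it, just under the level for testing, and its 3 flow values lay above the 3 controls. The other deposited table gave the opposite order of means, 1.09 FPKM in the controls and 0.889 FPKM with flow, with overlapping groups. Adamts14, a procollagen N-propeptidase (ENSMUSG00000059901, chromosome 10 from 61197112 to 61273438), had 18.1, 28.1 and 14.7 FPKM without flow, against 14.4, 21 and 13.3 FPKM after it. Replicate 2 was the highest in both groups (log2 fold change -0.28, SE 0.27, limma adjusted p = 0.671). Adamts2, the main propeptidase of type I procollagen, had 2.16 ± 1.49 FPKM in controls and 2.09 ± 0.865 FPKM with flow (log2 fold change 0.024, SE 0.38, limma adjusted p = 0.983). In the other deposited table its means were 0.957 FPKM in the controls and 2.4 FPKM with flow, with overlapping groups. Control 1 there, at 0.206 FPKM, lay under the 0.615 FPKM that 3 reads are worth. Adamts7, which cuts cartilage oligomeric matrix protein, had 7.77 ± 0.302 FPKM in controls and 7.38 ± 1.58 FPKM with flow (log2 fold change -0.082, SE 0.16, limma adjusted p = 0.841). Adamts10, linked to fibrillin microfibrils, had 3.16 ± 1.04 FPKM in controls and 3.6 ± 0.457 FPKM with flow (log2 fold change 0.17, SE 0.21, limma adjusted p = 0.746). The other 12 Adamts genes with Adamts4 left aside lay under 1 FPKM, with Adamts6 at 0.371 to 0.884 FPKM and Adamts12 at 0.212 to 0.517 FPKM.

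ADAMTS-like proteins share the ancillary domains of ADAMTS enzymes but have no protease domain. Adamtsl4, a fibrillin-binding member (ENSMUSG00000015850, chromosome 3 from 95676201 to 95687917), had 95.6, 61.9 and 81.4 FPKM in non-flow controls 1 to 3 and 51.6, 50.5 and 89.9 FPKM in flow libraries 1 to 3. Flow libraries 1 and 2 were the lowest of the 6 and flow library 3 the second highest (log2 fold change -0.34, SE 0.27, limma adjusted p = 0.634). Adamtsl5 (ENSMUSG00000043822) had 50.3, 42.2 and 51.3 FPKM in non-flow controls 1 to 3 and 35.7, 35.4 and 52.9 FPKM in flow libraries 1 to 3. Flow libraries 1 and 2 were again the lowest, and flow library 3 was the highest of the 6 (log2 fold change -0.23, SE 0.18, limma adjusted p = 0.634). Their transcripts hold 60.1% and 58% G and C, and after the GC correction the log2 fold changes were -0.12 and -0.027. Adamtsl3 reached 0.757 FPKM in flow library 1 and 0.27 in flow library 2 but was at most 0.0868 FPKM in the other 4 libraries.

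In several of these genes, control and flow libraries with adjacent titles had similar values. The library titles of control and flow are numbered 3 and 4, 11 and 12, and 19 and 20 for replicates 1 to 3, and the labels put replicates on separate days, but no label says that adjacent titles share a day. As a description with no test, the spread of log2(FPKM + 1) over the 6 libraries was split into the part between the 3 pairs of adjacent titles (which has more freedom to vary, with 3 levels), the part between flow and control (with 2 levels), and the rest. The part between title pairs was 99.5% of the sum of squares in Adamts1, 95.3% in Timp2, 94.6% in Adam17, 90.2% in Mmp13, 87.9% in Adamts2 and 81.5% in Adamts14. In Adam15 it was only 1.61%, with 88.2% between flow and control, and in Mmp2 28.4% and 62.8%. The part between title pairs exceeded that between flow and control in 19 of 25 members, against 64.5% of all tested protein-coding genes. Its median was 61.5% over the 25 members and 43.6% over protein-coding genes, and it was 77.1% in the 6 Adamts genes, 62.5% in the 8 Mmp genes and 11.9% in the 7 Adam genes. Read by adjacent titles, flow was the lower in all 3 pairs in 5 of 25 members (Timp2, Mmp2, Adam15, Adamts14 and Mmp28), against 20.3% of all tested genes. It was the higher in all 3 pairs in 0 of 25, against 18.9%. With the pairs as a block, limma gave an unadjusted p under 0.05 for Adam15, Mmp2 and Adamts14, each with an adjusted p of 0.423, where 11.7% of all genes reached that level.

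**Figure D5:**
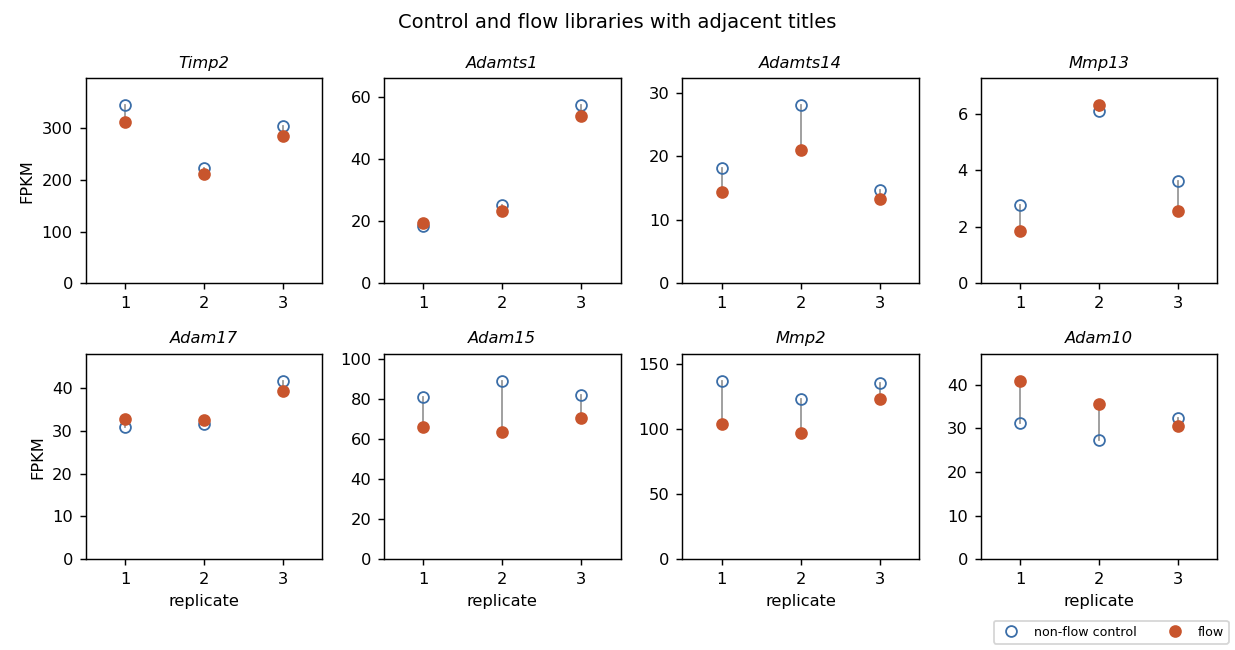
FPKM of 8 genes in control (open blue) and flow (filled orange) libraries of replicates 1 to 3, joined where library titles are adjacent, each axis starting at 0. Both points of replicate 3 lie above all others in Adamts1 and Adam17, both of replicate 2 lie above all others in Mmp13 and Adamts14 and below all others in Timp2, while in Adam15 and Mmp2 every flow point lies below every control.

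Of the 59 members under 1 FPKM, few lay clearly above the counting floor. Over all 84 members, 40 were below the FPKM of 3 reads in all 6 libraries, given the length of their longest transcript, 14 in some of the libraries and 30 in none. Only Adamts4, Adamts6, Timp3, Mmp9, Adamts12 and Adamtsl3 reached 0.5 FPKM in any library of the table tested. In the other deposited table Mmp16, Adam11, Mmp12, Adam3 and Adam5 reached that level as well. The highest value there was in a flow column for Mmp16 (1.14 FPKM), Adam11 (0.959 FPKM) and Mmp12 (0.81 FPKM). It was in a control for Adam3 (0.906 FPKM) and Adam5 (0.504 FPKM). For the 27 genes listed at 0 throughout, the depth allows only the statement that they were not detected above that floor. They include the collagenases Mmp1a, Mmp1b and Mmp8, the matrilysin Mmp7, the enamel protease Mmp20, the von Willebrand factor protease Adamts13, and Adam12.

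Of 54 other genes of pericellular proteolysis, 31 were tested and limma called 0, with 2 at an unadjusted p under 0.05, both lower with flow. Of all tested genes 8.52% reached that level. The median log2 fold change of the 31 was -0.14, with 25 below 0, against -0.011 and 51.7% over all tested genes. After the GC correction the median of the 31 was -0.094 with 22 below 0, against -0.002 and 5289 of 10460 protein-coding genes. In 4 of the 31, Furin, Bsg and Ctsb among them, the flow values lay below all controls, against 8% of all tested genes, and in 0 above. In the other deposited table the groups overlapped in each of these 3 named genes, with 16.7 to 24 FPKM in the controls and 10.3 to 17.8 FPKM with flow for Furin, 642 to 749.7 FPKM in the controls and 583 to 652 FPKM with flow for Bsg and 204 to 228 FPKM in the controls and 166 to 205 FPKM with flow for Ctsb. The convertase Furin, which activates MMP14, MMP11 and many ADAMs, had 25.5, 21.4 and 22.8 FPKM without flow, against 16.6, 11.6 and 18.2 FPKM after it. All its flow values lay below the controls (log2 fold change -0.57, SE 0.18, limma adjusted p = 0.559, unadjusted p = 0.0168), and the log2 fold change was -0.40 after the GC correction. Plau, urokinase, had 25.1 ± 5.06 FPKM in controls and 30.4 ± 8.76 FPKM with flow (log2 fold change 0.24, SE 0.26, limma adjusted p = 0.706). Plg, the gene of plasminogen itself, reached at most 0.0411 FPKM.

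Among membrane regulators, Bsg, the MMP inducer basigin, had 774 ± 16.7 FPKM in controls and 684 ± 37.4 FPKM with flow, each flow value below every control (log2 fold change -0.18, SE 0.081, limma adjusted p = 0.559), and its log2 fold change was 0.016 after the GC correction. Cav1, caveolin-1, had 768 ± 207 FPKM in controls and 571 ± 100.2 FPKM with flow (log2 fold change -0.41, SE 0.23, limma adjusted p = 0.566). After the GC correction the log2 fold change of Cav1 was -0.56. Rhbdf1, an iRhom that carries ADAM17 to the cell surface, had 28.9 ± 4.14 FPKM in controls and 23.5 ± 4.38 FPKM with flow (log2 fold change -0.30, SE 0.17, limma adjusted p = 0.566), and Tspan5, a tetraspanin partner of ADAM10, had 20.6 ± 3.64 FPKM in controls and 17 ± 3.62 FPKM with flow (log2 fold change -0.27, SE 0.20, limma adjusted p = 0.631). In these 4 genes the test was not passed. Of other matrix enzymes and enhancers, Ctsb, cathepsin B, had 234 ± 12.5 FPKM in controls and 205 ± 15.8 FPKM with flow, again with every flow value below the controls (log2 fold change -0.19, SE 0.095, limma adjusted p = 0.559), and Pcolce, which enhances procollagen C-proteinase, had 357 ± 34.9 FPKM in controls and 273 ± 70.1 FPKM with flow (log2 fold change -0.41, SE 0.20, limma adjusted p = 0.559). Pcsk7, a further convertase, had 7.33 ± 0.734 FPKM in controls and 6.54 ± 0.305 FPKM with flow (log2 fold change -0.14, SE 0.12, limma adjusted p = 0.634). Of substrates, Fn1, fibronectin, had 1156 ± 110.3 FPKM in controls and 1064 ± 109 FPKM with flow (log2 fold change -0.12, SE 0.12, limma adjusted p = 0.673) and Hspg2, perlecan of the pericellular space around osteocytes, had 46.1 ± 3.75 FPKM in controls and 45.2 ± 10.7 FPKM with flow (log2 fold change -0.052, SE 0.19, limma adjusted p = 0.919). The ADAMTS substrates aggrecan and versican were low, with Acan at most 0.0154 FPKM and Vcan at most 0.701 FPKM.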

How the data were processed

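The authors deposited 2 tables of FPKM, 1 column per library. Per the submitters' processing notes, the build was mm10 and the tools included Cufflinks 2.2.1, TopHat2 2.0.9 and CASAVA 1.8.2, and the labels' protocols give 50-cycle single-end reads. Whether counting used strand, and which annotation it used, is not given in the sources used here, so reads of overlapping antisense genes cannot be told apart. The table that names a library title in all 6 columns was tested. The other, in which 2 flow columns match no title, served as an alternative by group, with the row of higher mean kept for gene IDs that occur more than once (22 rows dropped).

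Genes averaging 1 FPKM or more entered limma 3.58.1 (R 4.3.3) as log2(FPKM + 1) (eBayes with trend, two-sided, no covariate, Benjamini-Hochberg over 11957 genes, threshold 0.05). The step was tested on simulated data. The p-values reflect how 3 cultures per group vary, and an exact permutation test of 3 against 3 cannot go below 0.1, so none was run. Coordinates (1-based), GC content, lengths and exon overlaps came from GENCODE M21 on mm10, which held all 84 genes. Depth was read from FPKM multiplied by transcript length minus 200 nt, which gathers at the value of 1 read. The GC correction removed a lowess trend (span 0.3) per library in protein-coding genes.

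The members and lists were chosen with earlier results of these data known. Values per library are given for members with a mean of at least 10 FPKM, for Mmp13 and for the 6 with the smallest p, those of other tested members as group means, and those under 1 FPKM where a library reached 0.5 FPKM. Of the 54 pathway genes, the pair with the smallest p in each group is named, except 1 gene that is not reported here; other genes named were chosen after their values were seen. A planned split of ADAMs by a protein motif was not made, as protein sequences were not used here.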

Additional observations from a re-analysis of the deposited data

How the results depend on the processing

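Limma called 0 members under each of the 16 alternatives planned and the 1 added, with the lowest adjusted p, 0.0804, that of Adam15 without flow library 3 (over its other alternatives, 0.423 to 0.931). The number of all genes called was 4 with a pseudocount of 0.1 and with no filter on low values, 0 with the GC correction, 1 with the replicate block of adjacent titles, 3 to 14 with 1 library left out and 76 with flow library 3 alone. The number of members whose flow values all lay above the controls was 1 with no filter, 2 in the other table, 4 with flow library 3 alone and 0 to 1 with 1 library left out, and the number all below was 7 and 2 to 6 in the last 2 cases. Of all genes, 23.6% lay above and 25.5% below with flow library 3 alone, 22.8% below without flow library 3, and 6.65% above in the other table. With no filter 5.12% of all genes lay above. With 1 library left out 9.93% to 22.8% lay above and 10.9% to 22.8% below. Members with an unadjusted p under 0.05 (limma) numbered 1 with quantile normalization, with GC correction (Mmp23), without the eBayes trend and in the other table. In those fits 8.65%, 6.7%, 7.62% and 6.38% of all genes tested reached that level. With 1 library left out 1 to 5 members did, against 4.01% to 26.4% of all genes. The 5 came without flow library 3, where 26.4% of all genes reached that level. With no filter 31 of 57 members had a negative log2 fold change, against 11206 of 20517 genes.

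Of the 25 tested members 9 kept their sign throughout, among them Adam15 and Mmp2. Signs turned with the GC correction, and with the replicate block plus GC correction to the same values, at 0.010 for Timp2, -0.041 for Adam9, 0.044 for Adam8, -0.083 for Adam17, 0.12 for Adamts7, 0.012 for Pcsk7, 0.016 for Bsg, 0.18 for Hspg2. In the other table the values were 0.12 for Adamtsl5, 0.15 for Adamts7, 0.016 for Pcsk7. With flow library 3 alone they were 0.14 for Mmp14, 0.19 for Adamtsl4, -0.083 for Adam9, 0.15 for Adamtsl5, 0.82 for Adamts1, 0.16 for Adam23, 0.18 for Adamts7, -0.041 for Mmp19, 0.15 for Mmp28, 0.042 for Hspg2. With 1 library left out the log2 fold change ranged from -0.28 to 0.056 for Timp2, from -0.014 to 0.035 for Timp1, from -0.013 to 0.073 for Adam9, from -0.067 to 0.15 for Adam17, from -0.48 to 0.41 for Adamts1, from -0.72 to 0.076 for Mmp11, from -0.21 to 0.062 for Adamts7, from -0.088 to 0.22 for Mmp19, from -0.64 to 0.038 for Mmp13, from -0.18 to 0.39 for Adamts2, from -0.20 to 0.14 for Hspg2. None of these genes passed the test in any of these fits, and the cause of each turn was not tested.

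The labels do not number replicates across groups, so adjacent titles as pairs are not established. Deviations of adjacent titles from their group means correlated across genes at 0.043, 0.0227 and 0.0644 over all tested genes, 0.29, 0.377 and 0.342 over protein-coding genes and 0.483, 0.696 and 0.545 over the 25 members. Titles that are not adjacent gave -0.0685 to 0.0268 over all tested genes and -0.469 to -0.0886 over the 25 members. Deviations within a group sum to 0, so the adjacent and other correlations are not independent. With the replicate block 3 members (Adam15, Mmp2 and Adamts14) had an unadjusted p under 0.05 and 0 were called (limma, lowest adjusted p = 0.423), and with the GC correction added 2 genes of all were called.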

Other observations

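The other deposited table is shallower, at 690000 reads in non-flow control 1 and 3610000 to 4720000 reads in the other 5 columns. Of the 25 tested members, 2 lay above all controls there and 3 below, against 6.65% and 5.91% of all genes tested in that table. Those above were Adam10 and Mmp23. Mmp23 had 2.67 to 5.35 FPKM in the controls and 5.52 to 8.84 FPKM with flow, but its lowest value, in control 1, was under the 3.52 FPKM that 3 reads are worth in that library. Those below were Adam15, Adam8 and Adam23. Adam8 had 60.6 to 70.01 FPKM in the controls and 53.3 to 55.4 FPKM with flow, and Adam23 had 12.8 to 17.5 FPKM in the controls and 8.2 to 11.9 FPKM with flow. In the tested table Adam10, Mmp23, Adam8 and Adam23 overlapped between groups.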
